A study of Mus musculus with 16 samples.

Results

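Wnt5a, Wnt4, Fzd1 and Sfrp2 are genes of the Wnt signalling pathway, encoding a pair of Wnt ligands, a receptor and a secreted Wnt-binding modulator. They were chosen from the authors' FPKM values, which were higher in WT1-deleted than in control GFP-intermediate activated hepatic stellate cells (aHSCs), so their direction and size in that comparison are a description and were not tested. All 4 genes had a row in the table for GFP-intermediate aHSCs, among its 419 rows with a gene name, and each row named that gene alone. None of the 4 had a row among the 123 named rows for GFP-high aHSCs or the 5716 rows for quiescent hepatic stellate cells (qHSCs). The 3 tables hold 5954 distinct row names. Each table holds genes that the authors called differentially expressed, so the level of a gene without a row is unknown, and its absence does not show that it was unchanged. The number of qHSC rows equals that in the study's text. For each aHSC fraction that text gives fewer up- and downregulated genes than the named rows counted here. The reason was not examined.

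RNA was measured in 16 samples of C57/Bl6 mice. The aHSCs came from adult male animals injected with carbon tetrachloride for 8 weeks, which kills pericentral hepatocytes and leads to fibrosis. Control animals were PDGFRbCre;WT1_+_GFP;Ai14 and deleted animals PDGFRbCre;WT1_fl_GFP;Ai14. All of them carried a constitutive Cre driven by PDGFRb, the Ai14 reporter that turns red (RFP) after Cre activity, and 1 WT1 allele replaced by GFP. Control cells therefore had a single intact WT1 allele. In deleted animals the other WT1 allele was floxed, so that Cre could remove it. After density centrifugation, RFP-positive cells were sorted by GFP, which reports activity at the WT1 locus. The fraction called GFP-intermediate in the study is labelled low, with 2 control and 2 deleted samples, and 1 of those control samples was pooled from 2 animals. The GFP-high fraction had 3 control and 3 deleted samples. The 10 aHSC samples came from 6 animals, and the 5 animals behind the GFP-intermediate samples also gave GFP-high samples. The 6 qHSC samples came from 3 uninjured WT1CreERT2;Ai14 animals, which in the study's text are heterozygous for the CreERT2 allele of WT1 and in which tamoxifen at E10.5 had labelled the WT1-expressing embryonic cells, and each animal gave lineage label-positive and label-negative cells. For these animals the labels and the study's methods differ on the sex.

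Each group has 1 deposited FPKM for a gene, a level in fragments scaled to transcript length and to library size. No value for a single sample was used, so no spread between animals, no depth and no test can be given for any value below, and differences between groups are log2 ratios of group FPKM without an added constant. The targeted gene Wt1 was not analysed here, and the deletion was therefore not checked on it.

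Wnt proteins are secreted, lipid-modified ligands that bind Frizzled receptors on the surface of nearby cells. In the canonical branch this stabilises beta-catenin, which then acts with TCF and LEF factors in the nucleus. Non-canonical branches act through planar polarity proteins, small GTPases or calcium. Secreted frizzled-related proteins carry a cysteine-rich domain like that of Frizzled receptors and bind Wnt proteins outside the cell, and Dickkopf proteins are a further family of secreted modulators. In liver, Wnt ligands from the endothelium around central veins maintain the gene programme of pericentral hepatocytes, and Wnt signalling has been linked with stellate cell activation.

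In the GENCODE M21 annotation of GRCm38, Wnt5a lies on the plus strand at chr14:28504750-28527448 and Wnt4 on the plus strand at chr4:137277489-137299726, both with 5 exons in the principal transcript. Fzd1 is a gene of 1 exon on the minus strand at chr5:4753839-4758035. Sfrp2 lies on the plus strand at chr3:83766321-83774316 and has 3 exons. The 4 genes are thus on 4 chromosomes and share no promoter. Because they were higher together after deletion, the DNA just before their start sites is shown, from RefSeq on GRCm38.p6. RefSeq promoters were matched for 3 of the 4, Wnt5a being the exception. The windows hold the 250 bases before the RefSeq start, shortened for Wnt4 to the 104 bases that precede its GENCODE start, and read 5′ to 3′ on the strand of the gene, which for Fzd1 is chr5:4758217-4758466, for Sfrp2 chr3:83766071-83766320 and for Wnt4 chr4:137277385-137277488.
Fzd1: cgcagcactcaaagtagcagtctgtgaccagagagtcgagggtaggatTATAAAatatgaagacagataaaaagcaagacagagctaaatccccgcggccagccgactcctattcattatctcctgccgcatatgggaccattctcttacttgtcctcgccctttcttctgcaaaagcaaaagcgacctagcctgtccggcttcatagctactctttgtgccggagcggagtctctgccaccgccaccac
Sfrp2: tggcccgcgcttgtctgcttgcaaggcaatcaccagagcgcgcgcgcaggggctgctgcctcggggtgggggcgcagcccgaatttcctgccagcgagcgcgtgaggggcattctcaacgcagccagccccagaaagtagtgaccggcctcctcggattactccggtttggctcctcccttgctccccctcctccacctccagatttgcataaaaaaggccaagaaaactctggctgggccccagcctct
Wnt4: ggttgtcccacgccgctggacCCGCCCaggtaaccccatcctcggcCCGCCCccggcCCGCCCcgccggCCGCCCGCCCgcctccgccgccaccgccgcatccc
The capitals mark matches on either strand to the letters searched. Searched first were GCGTGGGAG, bound by WT1, and the related GCGGGGGCG, bound by EGR factors, followed by CTTTGAA and its variant CTTTGAT, bound by TCF and LEF factors. A GC box, spelled GGGCGG, was added after the sequences had been seen, as was the TATA box TATAAA. Fzd1 had a single match to the letters TATAAA, at position -202 relative to its RefSeq start, and whether it acts as a TATA box was not tested. Wnt4 had 5 GC box matches, all on the strand opposite to the gene, and at 1 place adjacent matches overlapped. Sfrp2 had no match, and none of the windows held the WT1, EGR, TCF or LEF letters. Among all 32851 RefSeq promoters, the 250 bases before the start held the GC box letters in 32.7% and the TATA box letters in 12.4%. These shares are for a longer stretch than the 104 bases searched for Wnt4. The share was 4.46% for CTTTGAA and 3.21% for its variant, 2.57% for the EGR letters and 0.405% for the WT1 letters. The G and C content of these 250 bases was 51.2% for Fzd1, 63.6% for Sfrp2 and 85.2% for Wnt4, against a median of 52.4% over all promoters. Over these 250 bases, which for Wnt4 reach past its GENCODE start, Wnt4 was more GC-rich than 99.9% of promoters, whereas Fzd1 was near the middle. No letters searched for were common to the 3 windows.

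Both ligands were higher in WT1-deleted than in control GFP-intermediate aHSCs. Wnt5a, a ligand best known for non-canonical signalling, stood at 8.95 FPKM in control cells and at 35.7 FPKM after deletion, a 3.98-fold difference. Wnt4, known for its part in kidney and female reproductive tract development, stood at 9.0 FPKM in control cells and at 22.3 FPKM after deletion, a 2.48-fold difference. The ligands therefore had nearly the same level in control cells, with a ratio of Wnt5a to Wnt4 of 0.995, and different levels after deletion, with a ratio of 1.60. Summed over both ligands, the level went from 18.0 to 58.0 FPKM. The other 17 of the 19 mouse Wnt ligands had no row.

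Fzd1, a Frizzled receptor that takes part in canonical signalling, was the receptor with a row, and none of the other 16 receptors and co-receptors on the list had one. It stood at 12.7 FPKM in control cells and at 33.3 FPKM after deletion, a 2.63-fold difference. In control cells Fzd1 stood above each of the ligands, at 1.42 times the FPKM of Wnt5a and 1.41 times that of Wnt4. After deletion it stood slightly below Wnt5a, at 0.935 times its FPKM, and at 1.5 times that of Wnt4.

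Sfrp2, the secreted Wnt-binding modulator, was the most abundant of the 4 genes in both groups, at 19.2 FPKM in control cells and 66.5 FPKM after deletion. Its 3.47-fold difference was the second in size, after that of Wnt5a. The ratio of Sfrp2 to Wnt5a was 2.14 in control and 1.86 in deleted cells, whereas its ratio to Wnt4 went from 2.13 to 2.98 and that to Fzd1 from 1.51 to 1.99.

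Beside the 4 genes, the table held 2 further rows starting Wnt, Fzd, Sfrp or Dkk, both for secreted modulators and both higher after deletion. Sfrp1, the relative of Sfrp2, stood at 8.52 FPKM in control cells and at 21.1 FPKM after deletion. Dkk3, a divergent member of the Dickkopf family, had 14.9 and 35.2. All 6 rows of these families were thus higher after deletion, against 37.2% of the 419 named rows (156), the other 62.8% (263) being lower. That count includes the 4 genes picked for this change. Sfrp1 and Dkk3 were not among the 4, but the families too were chosen with earlier results of these data known. The count is therefore a description. The study's text gives fewer downregulated genes for this fraction than the 263 lower rows, so the 37.2% holds for these rows only. The log2 ratios of the 6 rows lay between 1.24 for Dkk3 and 1.99 for Wnt5a, with a median of 1.35, and the median was 1.54 over the 146 higher rows with a control value above 0, the other 10 being listed at 0 in control cells. In control cells the order of the levels was Sfrp2, Dkk3, Fzd1, Wnt4, Wnt5a and Sfrp1. After deletion it was Sfrp2, Wnt5a, Dkk3, Fzd1, Wnt4 and Sfrp1, so Wnt5a moved from the fifth to the second place. Without a spread between samples it cannot be said which neighbours in either order differ.

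**Figure D1:**
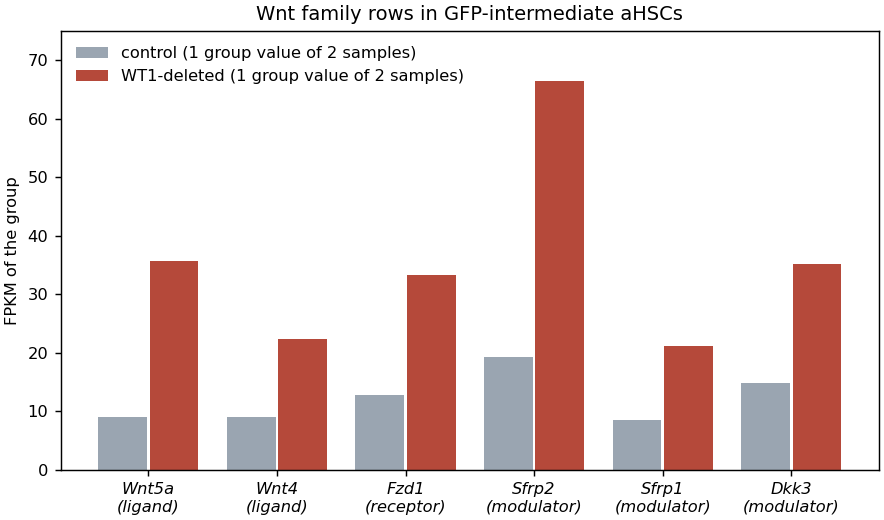
Group FPKM (vertical axis) of the 6 Wnt family rows in GFP-intermediate aHSCs, with grey bars for control and red bars for WT1-deleted cells, each bar being 1 deposited group value of 2 samples with no error available. Every red bar is higher than its grey partner, from 2.37-fold for Dkk3 to 3.98-fold for Wnt5a, and Sfrp2 is the highest in both groups.

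These differences were not among the extremes of the table. Among the 156 higher rows ranked by log2 ratio, with the 10 listed at 0 in control cells placed first, Wnt5a was at place 52, Sfrp2 at 61, Fzd1 at 103 and Wnt4 at 116, and Sfrp1 and Dkk3 followed at 119 and 134. The smallest rise in the table was 1.11 on the log2 scale, so Wnt4, Sfrp1 and Dkk3 lay close to the lower edge of what had been called. Ranked by the difference in FPKM, which favours abundant genes, Sfrp2 was at place 12 and Wnt5a at 24 of the same 156 rows.

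**Figure D2:**
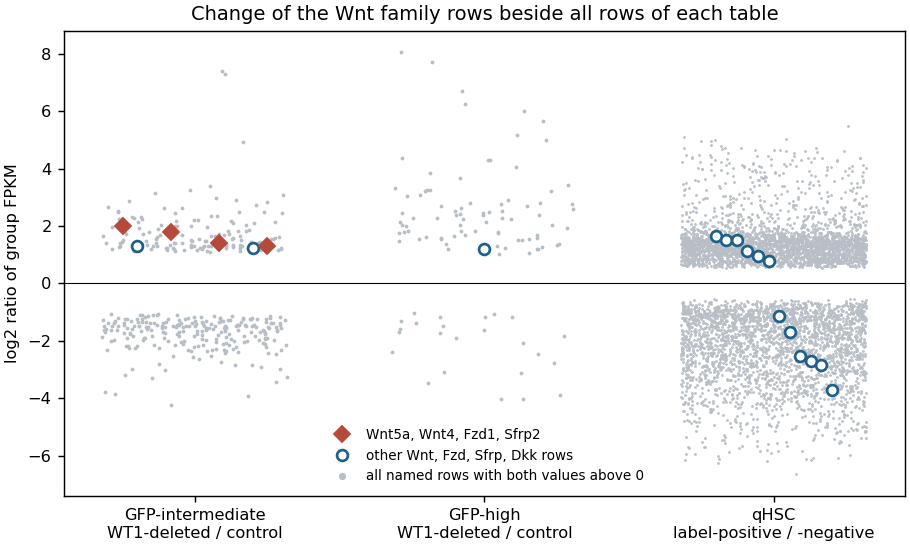
Log2 ratio of the group FPKM (vertical axis) for every named row with values above 0 in both groups (grey points, spread sideways for display) in each of the 3 tables, with red diamonds for Wnt5a, Sfrp2, Fzd1 and Wnt4 and open blue circles for other Wnt, Fzd, Sfrp and Dkk rows. The 6 family rows of GFP-intermediate aHSCs lie between 1.24 and 1.99, the single row of GFP-high aHSCs lies at 1.2, and the 12 rows of qHSCs divide into 6 above and 6 below 0. The empty band around 0 is there because the tables hold only called genes.

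To place the 4 genes among the others, the 3 rows nearest to each were found by the root mean square difference of log2 FPKM over the 2 group values of GFP-intermediate aHSCs. Nearest to Wnt5a were Pdk4, Mdk and Cyp1b1, at distances of 0.155 to 0.188. Nearest to Wnt4 were Lipe, Flnc and the modulator Sfrp1, at distances of 0.0362 to 0.0800. The rows nearest to Fzd1 were those of Postn, which encodes the matrix protein periostin, Mmp23 and Ctgf, a secreted matricellular factor, with distances of 0.107 to 0.110. Nearest to Sfrp2 was Cyp7b1, at 19.5 and 66.7 FPKM and a distance of 0.0185, followed by Gm8113 and by Mmp2, which encodes a gelatinase. With 2 values a gene, a small distance says only that both levels were alike.

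Of 142 genes on lists of Wnt ligands, receptors, modulators, receptor turnover, cytoplasmic and nuclear components, targets and planar polarity, 9 had a row in GFP-intermediate aHSCs, 8 of them higher and 1 lower after deletion. Without the 4 genes picked for being higher, 4 rows were higher and 1 lower, in a table with 37.2% of rows higher and 62.8% lower. The lists were chosen with earlier results of these data known, so these counts are a description. Leaving out the 4 genes and their relatives Sfrp1 and Dkk3, the other rows were those of Rspo3, Nkd1 and Plcb2. Rspo3 encodes a secreted R-spondin that keeps Frizzled receptors at the cell surface. It stood at 1.12 FPKM in control cells and at 4.58 FPKM after deletion. Without a pseudocount its log2 ratio of 2.03 was slightly above that of Wnt5a. Its control level was low, and its ratio with a pseudocount was not computed. Nkd1, an inhibitor of Dishevelled and itself a target of canonical signalling, had 3.24 and 9.09. Plcb2, a phospholipase of the calcium branch that is abundant in blood cells, went the other way, with 10.8 and 3.83. Of the 13 listed targets of canonical signalling, Nkd1 was the 1 with a row, and Axin2, Lef1, Ccnd1 and Myc had none. No gene on the lists of ligand production or nuclear components had a row, nor did any gene other than Plcb2 on the list of planar polarity and other non-canonical genes. That last list holds no ligands, and Wnt5a is counted under the ligands. Among functional terms for genes upregulated in this fraction, the study gives positive regulation of the non-canonical branch.

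Markers of other cell types moved in the same table. Of 12 macrophage genes 8 were covered by 7 rows, and all 7 rows were lower after deletion. Their summed level went from 4611 FPKM in control cells to 1125 FPKM, with log2 ratios of -2.36 to -1.42. Stab1, Mrc1 and Cdh5, listed as sinusoidal endothelial genes, of which the first pair are also expressed by macrophages, were lower as well, with a summed FPKM of 174 and 48.8, and the other 9 of those 12 genes had no row. Among 12 stellate cell genes, Rgs5 (1.41 and 8.20) and Colec11 (2.92 and 10.7) were higher and Hgf (9.45 and 3.35) was lower, while Pdgfrb, Lrat, Des and Reln had no row. Dpt and Fbln1, 2 of 11 portal fibroblast genes, were higher, with 24.7 and 62.8 for Dpt and 43.3 and 95.3 for Fbln1. Lox, 1 of 8 myofibroblast genes, was higher (28.1 and 62.7), Gzma, 1 of 12 lymphocyte genes, was lower (9.93 and 3.05), and no listed mesothelial or hepatocyte gene had a row. In sorted bulk samples, fewer cells of a type and less RNA per cell cannot be told apart, and the part that these markers have in the Wnt family values was not tested. With each log2 ratio taken relative to the median over rows with both values above 0, which was -1.33, the 4 genes would stand at 2.64 to 3.32, and 199 rows (47.5%) would be higher and 219 lower.

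In GFP-high aHSCs, a single row of the Wnt families was present. Sfrp1 stood at 6.61 FPKM in control cells and at 15.2 FPKM after deletion, a 2.30-fold difference, in a table in which 77.2% of the 123 named rows were higher after deletion (66 of 123, or 53.7%, with ratios taken relative to the median of 1.83 over rows with both values above 0). Its log2 ratio of 1.2 was among the smallest, at place 92 of 95 higher rows, where the smallest was 1.02. No other gene of the 142 on the Wnt lists had a row. Sfrp1 was thus the 1 family gene with a row for both fractions, with 8.52 and 21.1 in GFP-intermediate cells. The fractions shared animals and were normalised in separate tables, so the pairs of values stand side by side without a test. Whether the change of Wnt5a, Wnt4, Fzd1 or Sfrp2 differed between the fractions could not be tested. Of the other cell types on the marker lists, no macrophage or endothelial gene had a row in GFP-high cells, whereas the portal fibroblast genes Dpt, Pi16 and Gsn were higher after deletion, with a summed FPKM of 69.4 and 283. A row that joins the T cell receptor gene Trac with Traj segments (10.9 and 213) and the row of the hepatocyte gene Cps1 (0.233 and 1.2) were higher too, and how these markers bear on the Sfrp1 value was not tested.

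In the table of qHSCs, 7 of 12 stellate cell genes had a row, 3 higher and 4 lower in label-positive cells. Their summed level was 144 FPKM in label-negative and 100 FPKM in label-positive cells, below that of the endothelial genes in both groups. The name qHSC is the study's. Pdgfrb stood at 0.905 and 0.370 FPKM in label-negative and label-positive cells, Colec11 at 0.221 and 0.882, Ngfr at 0.488 and 0.0344 and Rgs5 at 0.750 and 3.29. Dcn (109 and 49.0), Hgf (17.0 and 44.1) and Vipr1 (15.3 and 2.35) had higher levels, and Lrat, Des, Reln, Hhip and Ecm1 had no row. All 12 sinusoidal endothelial genes listed were higher in label-positive cells, with a summed level of 4418 and 11792 FPKM and log2 ratios between 1.28 and 1.86. All 10 hepatocyte genes were higher as well (193 and 1212 summed), whereas all 12 lymphocyte genes were lower (1413 and 44.3 summed), with log2 ratios between -5.92 and -4.11. Of the macrophage genes 7 rows were higher and 3 lower (1813 and 1029 summed), all 5 portal fibroblast rows were lower (341 and 63.1), all 6 mesothelial rows were higher (16.6 and 50.2), and of 4 myofibroblast rows 1 was higher and 3 lower (48.5 and 78.0). The lower macrophage rows included Lyz2 (1283 and 289), and the higher ones included Clec4f (34.2 and 166) and Marco (4.82 and 32.4). The higher myofibroblast row was Spp1 (26.0 and 70.1), while Col1a1, Col1a2 and Lox were lower. These values stand beside those of the Wnt family below, and their part in them was not tested.

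In qHSCs none of the 4 genes had a row, but the same families had 12 other rows, 6 of them higher and 6 lower in lineage label-positive than in label-negative cells, against 50.4% of all 5716 rows higher and 49.6% lower. The ligands with a row were Wnt2, Wnt9b, Wnt11, Wnt10a and Wnt10b. Wnt2, a canonical ligand known from liver endothelium, was the most abundant, at 49.4 FPKM without the lineage label and 96.2 FPKM with it. Wnt9b, which is also known from the central vein endothelium, had 6.24 and 10.8. Wnt11, a mostly non-canonical ligand, was lower in label-positive cells, with 5.95 and 0.832. The related ligands Wnt10a (0.294 and 0.0448) and Wnt10b (0.586 and 0.101) were lower too, at levels below 1 in both groups.

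All 3 Frizzled receptors with a row were higher in label-positive qHSCs, and none of them was Fzd1. Fzd4, known from vascular development, stood at 24.5 FPKM without the label and at 69.1 FPKM with it. Fzd6 had 2.96 and 9.20, and Fzd8 had 3.89 and 11.0. Their log2 ratios of 1.49 to 1.63 lay close together and inside the range of the endothelial genes. Those of Wnt2, Wnt9b and Dkk3 lay below that range. The mesothelial range of 1.18 to 1.998 also held all 3 Frizzled ratios, and the hepatocyte range of 1.495 to 4.83 held those of Fzd6 and Fzd8. The 3 higher stellate cell genes, Hgf (1.37), Colec11 (2.0) and Rgs5 (2.13), spanned them as well, while 4 stellate cell genes were lower. So did the 7 higher macrophage rows, from 0.94 for C1qb to 2.75 for Marco, while 3 macrophage rows were lower. Over the higher rows of the table with both values above 0, the median was 1.31, with quartiles of 0.996 and 1.61. Which cell type the Frizzled values came from was not tested. The co-receptors Lrp5 (35.8 and 92.7) and Lrp6 (27.7 and 63.3) and the receptor Ryk (14.0 and 36.2) were also higher in label-positive cells, so that all 6 receptor genes with a row had the same direction.

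Among the modulators, Dkk3 stood at 20.1 FPKM without the label and at 43.6 FPKM with it. Dkkl1, a relative of the Dickkopf family, was lower, with 3.17 and 0.240, and its 13.2-fold difference was the largest of the 12 rows without a pseudocount, whereas with a pseudocount of 1 its log2 ratio was -1.75 and that of Wnt11 was -1.92. Dkk2 (0.494 and 0.151) and Sfrp4 (1.14 and 0.522) were lower at low levels. Sfrp1 and Sfrp2, both with rows in aHSCs, had no row here.

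**Figure D3:**
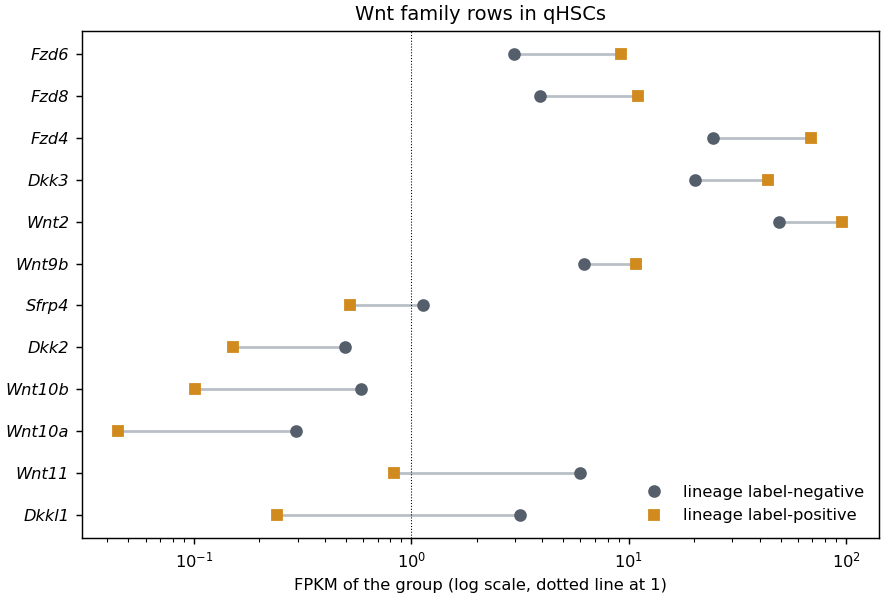
Group FPKM (horizontal axis, log scale) of the 12 Wnt, Fzd, Sfrp and Dkk rows in qHSCs, with grey circles for lineage label-negative and orange squares for label-positive cells, each point being 1 deposited group value of 3 samples. The 6 rows higher in label-positive cells all lie to the right of the dotted line at 1 in both groups, and each of the 6 lower rows lies to its left in label-positive cells.

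Of the 142 listed genes 54 had a row in qHSCs, 34 of them higher and 20 lower in label-positive cells, with a median log2 ratio of 1.0 against 0.64 for all rows of the table with both values above 0, where 50.4% of rows were higher and 49.6% lower. Ctnnb1, which encodes beta-catenin, stood at 121 FPKM without the label and at 345 FPKM with it, and Nkd1 had 8.73 and 24.7. Ccnd1, which encodes cyclin D1 and is a target in many tissues, had 38.6 and 114. Tcf7l1, a TCF factor that often acts as a repressor, had 16.3 and 47.4. Prickle2 of the planar polarity group had 3.65 and 12.2. Wls and Porcn, which are needed to make and release Wnt ligands, were both higher, with 41.6 and 83.8 for Wls and 3.17 and 6.3 for Porcn.

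The largest differences in the other direction were those of Lef1 and Tcf7, TCF and LEF factors that are also expressed by T lymphocytes. Lef1 stood at 39.7 FPKM without the label and at 0.626 FPKM with it, and Tcf7 had 104 and 2.16. The log2 ratio of Tcf7 was inside the range of the lymphocyte genes, and that of Lef1 slightly below it. Nfatc2, a calcium-dependent factor of activated T cells, had 6.97 and 0.733, and the planar polarity cadherin Celsr1 had 2.21 and 0.246. Znrf3, which removes Frizzled receptors from the cell surface and is a canonical target, had 4.79 and 0.351, and Axin2, the target most often used as a readout, had 6.05 and 1.52. Of the 9 canonical targets with a row 3 were higher and 6 lower in label-positive cells, Lef1 and Tcf7 being among the 6, beside 50.4% higher and 49.6% lower over the table.

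**Figure D4:**
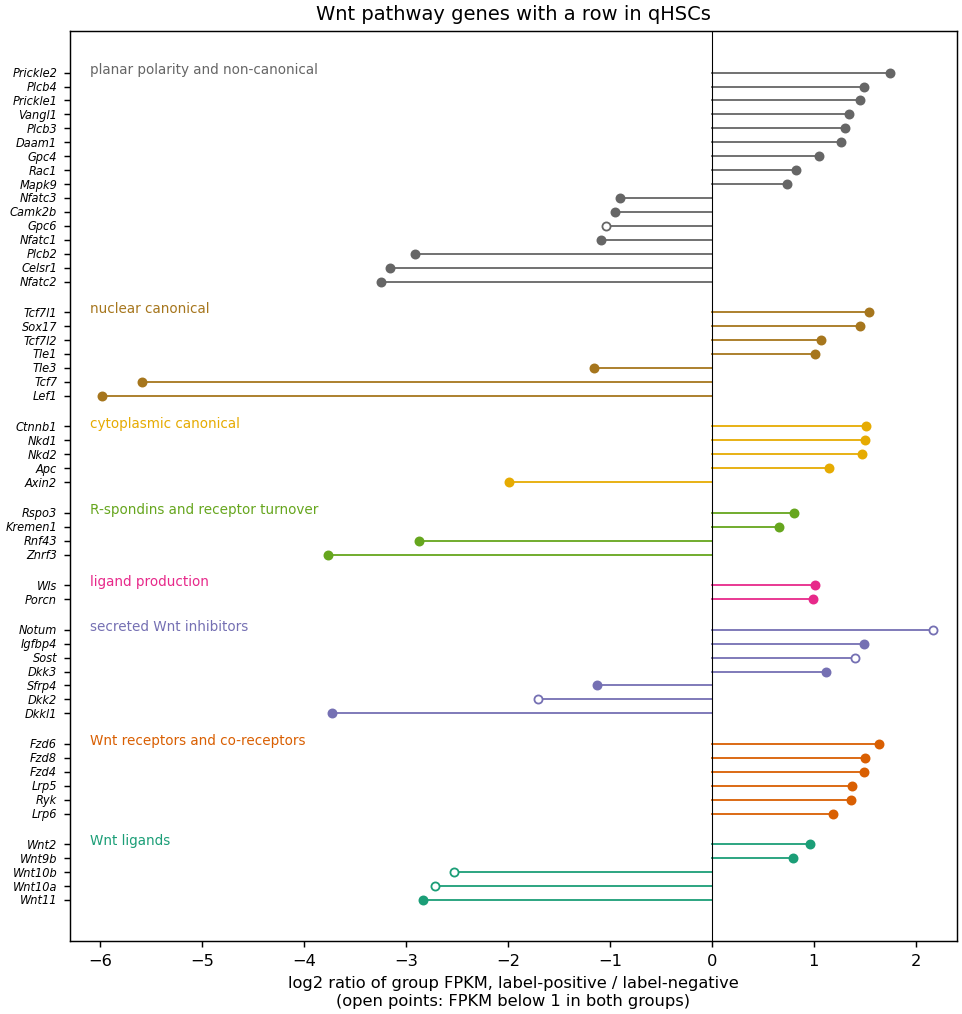
Log2 ratio of group FPKM, lineage label-positive over label-negative (horizontal axis), for the Wnt pathway genes with a row in qHSCs, coloured by the list they belong to, with open points for genes below an FPKM of 1 in both groups. Genes counted as canonical targets are drawn under the other list they belong to, which leaves out Ccnd1 and Myc. All 6 receptor and co-receptor genes lie to the right of 0, and Lef1 and Tcf7 lie farthest to the left, at -5.99 and -5.59.

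Across the 3 tables, 5 genes of the Wnt lists had a row in more than 1. Sfrp1 was higher after deletion in both fractions of aHSCs. Dkk3, Nkd1 and Rspo3 were higher in WT1-deleted GFP-intermediate aHSCs and also in label-positive qHSCs, where Rspo3 stood at 9.997 and 17.4 FPKM. Plcb2 was lower in both, with 22.1 and 2.93 in qHSCs. The groups of these tables differ in injury, genotype and sorting, so a shared direction is given as a value and was not tested.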

How the data were processed

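RNA of sorted mouse hepatic stellate cells was sequenced on an Illumina HiSeq. Per the study's methods, reads were mapped with bowtie 2 and differential expression was determined with Cuffdiff2 at an adjusted p-value of 0.05. The submitters' processing notes name TopHat2 2.0.3, Cufflinks 2.0.1 and DESeq2, and the builds mm9 and mm10, without saying which build these tables rest on. The annotation is not given in the sources used here. The deposited unit is FPKM, with replicates already combined by the authors into 1 value a group, so the normalisation cannot be redone. The authors' own fold changes, p-values and q-values are held in separate columns and were not used. Rows named by position alone, 149 for GFP-intermediate and 108 for GFP-high cells, were left out. 0 columns of values per sample were left unused.

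Samples were grouped by their labels. With group values no test was made, and log2 ratios of the group FPKM were computed. The ratio and direction steps returned known ratios that had been set without noise, which checks the arithmetic only. The 4 genes and the lists were chosen with earlier results of these data known. Genes named were the 4, every Wnt, Fzd, Sfrp or Dkk row, in each table up to 5 further list genes by largest ratio in each direction, provided 1 group reached 1 FPKM, and the 3 nearest rows to each of the 4. Lrp5, Lrp6, Ryk, Wls, Porcn, Axin2 and Notum were named after their values were seen. Python 3.11.15, pandas 2.3.3, numpy 2.4.6 and matplotlib 3.10.9 were used. Alternatives were pseudocounts of 1 and 0.1, an FPKM minimum of 1, rows naming 1 gene, an absolute log2 ratio of at least 1 and centring on the table's median.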

Additional observations from a re-analysis of the deposited data

How the results depend on the processing

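Centring on the median log2 ratio of the GFP-intermediate rows moved the ratio of Wnt5a to 3.32, that of Sfrp2 to 3.12, that of Fzd1 to 2.72 and that of Wnt4 to 2.64. The cause lies in the construction, since called rows were mostly lower after deletion, and the same step would make 66 rows of GFP-high cells higher and 57 lower. Pseudocounts of 1 and 0.1 moved none of these 4 ratios by as much as 1.5-fold and reversed no family row. In qHSCs a pseudocount of 1 brought the ratio of Wnt11 to -1.92, Dkkl1 to -1.75, Wnt10b to -0.53, Sfrp4 to -0.49, Dkk2 to -0.38 and Wnt10a to -0.31, and a pseudocount of 0.1 brought Wnt10b to -1.77 and Wnt10a to -1.44. The FPKM minimum, rows naming 1 gene and the minimum log2 ratio were applied to the higher and lower counts of whole tables and Wnt lists and of Wnt, Fzd, Sfrp and Dkk rows, the last, and the minimum ratio for the lists, having been chosen after seeing the data. The lower Wnt, Fzd, Sfrp and Dkk rows of qHSCs went from 6 to 3 under the FPKM minimum, and the other counts stayed within 1.5 times. Leaving out samples was not run, since each group has 1 value. No paired analysis was possible because values per sample were not used here, although label-positive and label-negative qHSCs came from the same animals. Depth is unknown, so levels below an FPKM of 1 carry an unknown counting error.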
